A study of Mus musculus with 80 samples.

Results

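To set the ribosome-bound RNA of Cx3cr1+ cells in an enzymatic cell suspension against that in directly homogenized tissue, the Cell-TRAP and Tissue-TRAP libraries of the sort comparison were compared within each mouse. The comparison holds the 8 libraries, of 80 in the series, that come from both preparations of the same 4 mice and that were made after pull-down, and all genes of the deposited table entered it. Of the 15919 genes listed, 14734 had more than 5 counts in every library of at least 1 of these groups and were tested. Every mouse carried 1 copy each of Cx3cr1-cre/ERT2 and of NuTRAP, received tamoxifen at 100 mg/kg daily for 5 days at about 3 months of age, and gave its brain at 5 to 8 months. For Tissue-TRAP (n = 4) one hemisphere was minced and homogenized on ice in lysis buffer with cycloheximide. For Cell-TRAP (n = 4) the other hemisphere of the same brain was digested with a papain-based enzyme mix for 30 min at 37°C, dissociated mechanically, cleared of debris, and lysed as an unsorted suspension. No transcription or translation inhibitor was present during the digestion. The libraries of the RNA set aside before the pull-down, Tissue-Input and Cell-Input, come from the same preparations of the same mice (n = 4 each). The methods do not settle whether Cell-Input was set aside as cells or as lysate.

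Translating ribosome affinity purification (TRAP) uses an eGFP-tagged ribosomal protein, switched on here by tamoxifen in cells that express Cx3cr1, so that an antibody to GFP pulls down their ribosomes and the mRNA on them. In the brain these cells are the microglia, the resident macrophages that survey the tissue through processes and purinergic receptors, together with macrophages at the brain's borders, which also express Cx3cr1. The cre line leaves 1 Cx3cr1 copy in place, and the tag does not separate microglia from border macrophages. Microglia answer tissue injury within minutes through immediate-early transcription factors, and then through NF-kB and its cytokine and chemokine targets. As this RNA comes from many cells at once, fewer cells of a type and less RNA per cell cannot be told apart.

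Levels are given as CPM, the counts of a gene relative to the library's total after TMM scaling, in the order of mouse 1 to mouse 4, and changes as log2 fold changes of Cell-TRAP over Tissue-TRAP with their standard error (SE). A gene was said to rise or fall when edgeR's quasi-likelihood test, with the mouse as a block, gave an FDR below 0.1 together with a change of over 2-fold. Depth was alike, with 12435687 to 16185756 counts in the Tissue-TRAP libraries and 12214821 to 17220508 in the Cell-TRAP libraries. The pulled-down RNA differed in make-up. The 281 microglial markers tested took 4.63% to 5.42% of the counts in Tissue-TRAP and 19.4% to 20.1% in Cell-TRAP, while the 97 neuronal markers took 2.23% to 2.45% and 0.0558% to 0.136%. In Input the microglial markers took 0.575% to 0.676% in tissue and 4.23% to 4.93% in the suspension. Changes are therefore also given on a microglial scale, on which the microglial markers found in at least 2 of 3 sources stay level on average. That scale lies 2.43 log2 units above the TMM scale. The Cell-TRAP library of mouse 1 stood apart in border macrophage, MHC class II, neuronal, heat shock, Egr and Nr4a early-response, and cytokine genes. Some of the results that rest on it, but not all, are given with and without that mouse.

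More than 1 gene in 2 changed between the preparations. Of the 14734 genes tested, 3622 rose (24.6%) and 4483 fell (30.4%), and 8021 of these 8105 genes (98.96%) moved the same way in all 4 mice. Falls were the deeper, with 1992 genes lower by more than 8-fold against 294 higher. With limma on the deposited log2 values the split was 2549 higher and 5547 lower. On the microglial scale 145 genes rose (0.984%) and 12224 fell (83%), so a rise on that scale is a rise beyond that of the microglial markers themselves. Among those 145 genes, 38 belong to 7 lists of early-response, NF-kB, cytokine, chemokine, and feedback genes, and 43 are microglial markers. These sets overlap, as 69 of the 145 belong to any of the gene lists or to the microglial markers. The plot of change against level shows the microglial markers as a band above 0 and the neuronal markers as a band far below it. The response genes spread widely, both above and below the microglial band.

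**Figure D1:**
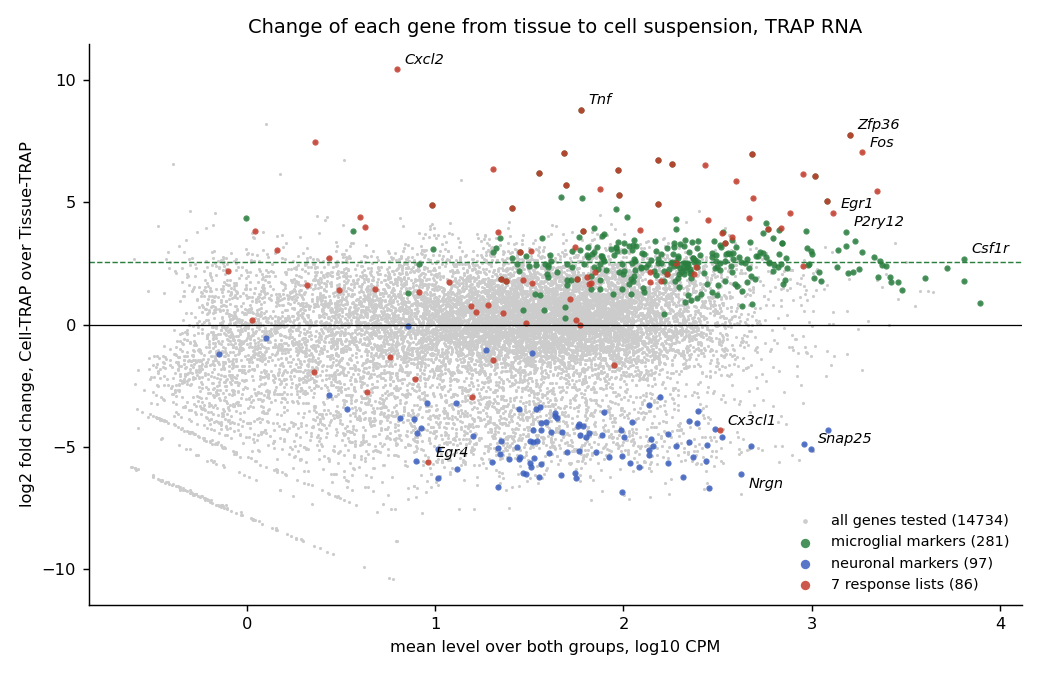
Each point is 1 of 14734 genes, with its mean level in both groups (log10 CPM) on the x axis and its log2 fold change of Cell-TRAP over Tissue-TRAP on the y axis; the dashed line is the median of the microglial markers, 2.55. Some response genes, such as Fos (7.07), lie above that line and others, such as Egr4 (-5.61), below it. Neuronal markers such as Snap25 (-5.07) lie far below 0. The height of Cxcl2, at 0 counts in all Tissue-TRAP libraries, depends on the model's prior count.

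The 15 largest rises among genes with at least 20 CPM in every Cell-TRAP library were Tnf, Zfp36, Fos, Ccl2, Atf3, Ccl3, Nfkbiz, Socs3, Ccl4, Ccl7, Dusp1, Btg2, U05342, Ier2, and Nfkbid. They include a cytokine (Tnf), 4 chemokines (Ccl2, Ccl3, Ccl4, and Ccl7), early transcription factors (Fos and Atf3), and genes of feedback on such responses (Zfp36, Socs3, and Dusp1). Among the 15 largest falls were Hipk4, Ppp1r17, Hapln4, Nefh, Calb1, 6330403A02Rik, Nrgn, Sst, 3110035E14Rik, Chrna4, Nefm, Hpca, Nell1, and Slc1a6. Among these are neurofilament subunits (Nefh and Nefm), a Purkinje cell glutamate transporter (Slc1a6), calbindin (Calb1), neurogranin (Nrgn), and a nicotinic receptor subunit (Chrna4). Nrgn stood at 815, 756, 779 and 1002 CPM in Tissue-TRAP and at 15.6, 5.14, 3.18 and 7.05 CPM in Cell-TRAP, so the groups were far apart, with mouse 1 the highest of the suspensions. It fell by 6.92 ± 0.35 on the log2 scale (FDR = 3.94e-07). In TRAP of cells sorted on the FACSAria, from other mice, its mean was 0.896 CPM. Those cells were sorted from suspensions made with the same enzymatic digestion, so FACSAria-TRAP does not give levels before digestion. Of the 4483 genes that fell, 2813 (62.75%) were under 1 CPM in FACSAria-TRAP, against 229 of the 3622 that rose (6.32%) and 3780 of all genes tested (25.65%).

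Promoters of the early-response, feedback, NF-kB, cytokine, and chemokine lists were searched whether or not their genes rose, since NF-kB, AP-1, and serum response factor are textbook regulators of such genes. Windows of 250 bases before to 50 bases after the RefSeq start (GRCm38.p6) were searched on both strands for the kB site, the CArG box bound by serum response factor, the CRE (TGACGTCA), the AP-1 site (TGACTCA or TGAGTCA), and the TATA box (TATAAA). Of 30 NF-kB, cytokine, and chemokine genes with a window, 16 (53.33%) held a kB site and 8 (26.67%) an AP-1 site, where 12.71% and 4.57% of the 10866 tested genes with a window did. Of 31 early-response and feedback genes, 4 (12.9%) held a CArG box, 3 (9.68%) a CRE, and 8 (25.81%) a kB site, against 1.58%, 3.43%, and 12.71%. No CArG box was matched in the 30 genes and no AP-1 site in the 31. Genes with a match include some that fell, such as Dusp5 (CArG box) and Egr4 (kB site). A match is only a run of letters in the window. The lines below give Cxcl2, with overlapping kB matches, Nfkbia, the inhibitor that NF-kB induces against itself, and Zfp36, the mRNA-decay factor with the largest rise of its list; capitals mark the kB matches in Cxcl2 (chr5:90903649-90903948, plus strand, bases -97 to -87 from the start) and Nfkbia (chr12:55492598-55492897, minus strand, -29 to -20) and the CArG box in Zfp36 (chr7:28379179-28379478, minus strand, -58 to -49).
Cxcl2: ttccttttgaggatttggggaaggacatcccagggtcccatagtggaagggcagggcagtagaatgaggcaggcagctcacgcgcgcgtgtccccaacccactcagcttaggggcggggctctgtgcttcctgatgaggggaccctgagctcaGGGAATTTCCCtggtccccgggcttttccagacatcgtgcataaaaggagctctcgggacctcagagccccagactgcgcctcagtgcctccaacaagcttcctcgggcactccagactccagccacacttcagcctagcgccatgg
Nfkbia: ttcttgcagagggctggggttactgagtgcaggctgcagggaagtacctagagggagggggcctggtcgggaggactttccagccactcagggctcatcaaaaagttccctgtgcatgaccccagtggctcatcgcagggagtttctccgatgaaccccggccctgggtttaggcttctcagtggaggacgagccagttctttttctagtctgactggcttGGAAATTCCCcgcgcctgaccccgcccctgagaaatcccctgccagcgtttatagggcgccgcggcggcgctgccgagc
Zfp36: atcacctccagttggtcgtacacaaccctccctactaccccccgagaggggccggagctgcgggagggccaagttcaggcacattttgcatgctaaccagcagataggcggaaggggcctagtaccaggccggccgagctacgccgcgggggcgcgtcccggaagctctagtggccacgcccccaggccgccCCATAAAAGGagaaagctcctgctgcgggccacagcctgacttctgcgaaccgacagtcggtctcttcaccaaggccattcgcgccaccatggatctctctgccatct

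Immediate-early transcription factors were the first group examined. Of 9 AP-1 genes tested, of 10 listed, 8 rose and none fell, with a median change of 4.29 (1.86 on the microglial scale), where all genes tested had a median of -0.06. Fos (mm10 chr12:85473901-85477270, plus strand), the founding member of the family, stood at 40.4, 26.5, 21.3 and 24.3 CPM in Tissue-TRAP and at 3939, 4196, 3355 and 3245 CPM in Cell-TRAP. The groups did not overlap, and the change was 7.07 ± 0.15 (134-fold, FDR = 3.75e-08). Jun (mm10 chr4:95049036-95052222, minus strand), its partner and the member with the highest mean, went from 112, 100.1, 89 and 87.5 CPM to 5192, 4479, 3910.5 and 3827 CPM, a change of 5.48 ± 0.063 (FDR = 6.90e-09). Atf3, a stress-induced partner of Jun, went from 7.46, 6.19, 9.08 and 6.97 CPM to 1202, 1026, 779 and 828 CPM (log2 change 6.99 ± 0.18). Fosl2 was the exception: 74.8, 57.4, 42.3 and 60.4 CPM in tissue and 78.6, 59.6, 50.8 and 43.9 CPM in suspension overlapped throughout (log2 change -0.02 ± 0.12). Junb, named after its values were seen, rose by 5.07 ± 0.089 and Fosb by 4.29 ± 0.13.

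The Egr, Nr4a, and related regulators did not move as 1 group. Of 18 genes, 12 rose and 3 fell, with a median change of 3.47 (1.04 on the microglial scale). Egr1, a zinc-finger factor induced by growth factors and by synaptic activity alike, went from 128, 109, 74.7 and 108 CPM to 3520.3, 2464, 1986 and 1974 CPM (log2 change 4.55 ± 0.11, FDR = 3.86e-08). Btg2, an antiproliferative early gene, rose by 6.08 ± 0.15 and Ier2 by 5.88 ± 0.09, and the levels of both were higher in each suspension than in any tissue library. The 3 that fell were Egr4, Nr4a2, and Nr4a3, which neurons also express. Egr4 stood at 22.7, 19.2, 11.4 and 18.6 CPM in tissue and 0.74, 0.522, 0.26 and 0 CPM in suspension and fell by 5.61 ± 0.40 (FDR = 3.10e-06), and Nr4a2 fell by 2.97 ± 0.28. In FACSAria-TRAP, Egr4 had a mean of 0.0947 CPM and Egr1 of 2997 CPM. Of 9 genes listed as neuronal activity genes, 7 fell and 1 rose (median -4.63), and the riser was Fosb, which is also an AP-1 factor. Arc, which acts at active synapses and was named after its values were seen, fell from 123, 95.2, 74.2 and 85 CPM to 3.78, 3.05, 1.23 and 2.51 CPM.

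**Figure D2:**
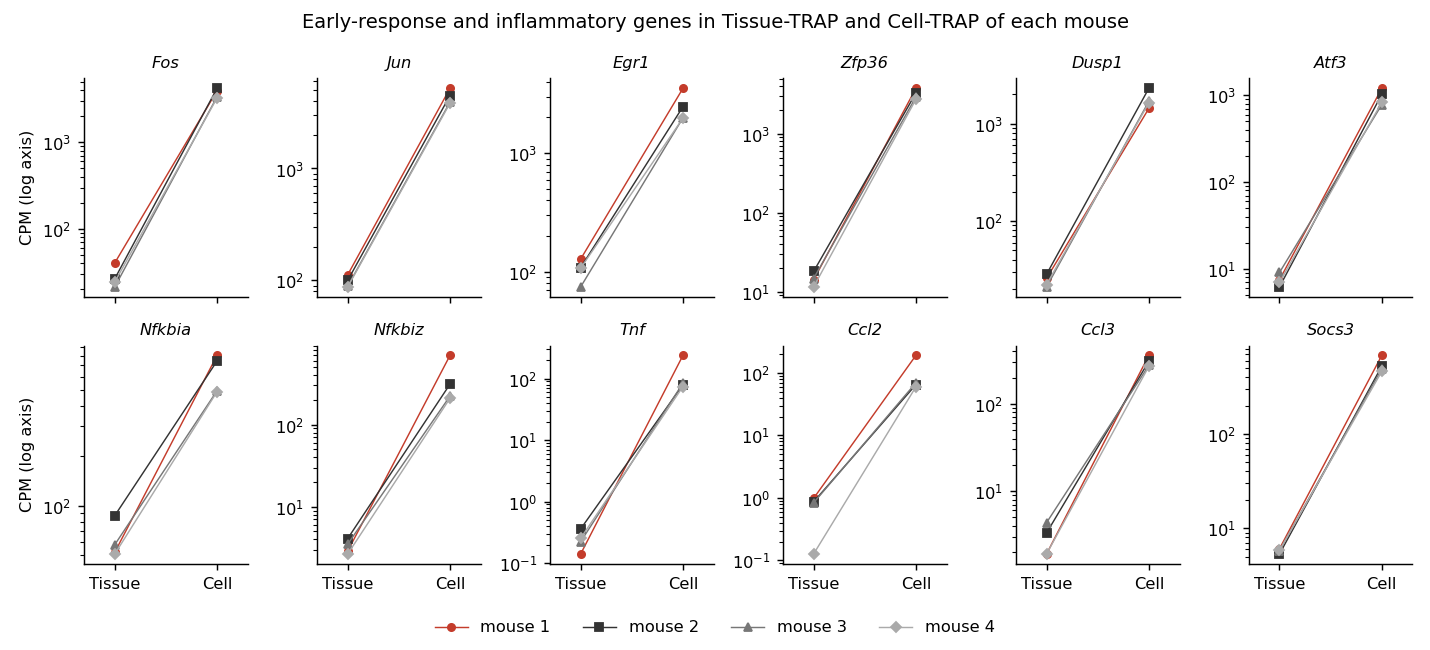
Level of 12 response genes (CPM, log axis with its own range in each panel) in Tissue-TRAP and Cell-TRAP, with a line joining both preparations of each brain. Every line rises, and mouse 1 ends highest by a clear gap for Nfkbiz, Tnf, and Ccl2, at 238, 79.4, 84.2 and 74.2 CPM of Tnf in mice 1 to 4.

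Most genes of feedback on these responses rose as well. Of 11 genes of MAPK and mRNA-decay feedback, 8 rose and 3 fell (median 3.80, or 1.37 on the microglial scale). Zfp36 (mm10 chr7:28376784-28379228, minus strand), which brings cytokine mRNAs to decay, went from 14.1, 18, 14.7 and 11.5 CPM to 3761, 3278, 2913 and 2723 CPM, a change of 7.77 ± 0.12 (218-fold, FDR = 2.63e-08). Dusp1, a phosphatase that inactivates p38 and JNK, went from 25.8, 28.4, 21.1 and 22.2 CPM to 1434, 2308, 1697 and 1640.3 CPM (log2 change 6.17 ± 0.12). The groups did not overlap for either gene. The phosphatases Dusp4 and Dusp5 and the receptor kinase inhibitor Spry2 went the other way, with Dusp4 at 5.79 to 10.3 CPM in tissue and 0.678 to 2.3 CPM in suspension, and they fell by 2.75 ± 0.34, 2.22 ± 0.36, and 1.44 ± 0.13. Of 9 Jak-Stat and IL-6 response genes, 8 rose and 1 fell (median 1.80, -0.63 on the microglial scale). Socs3, the feedback inhibitor of IL-6 signalling, stood at 6.05, 5.33, 5.79 and 5.83 CPM and then at 680.1, 524, 489.6 and 460 CPM, and rose by 6.53 ± 0.12 (92.3-fold). The IL-6 receptor Il6ra, the member with the highest mean, rose by 3.57 ± 0.073, whereas Cish, another inhibitor of cytokine receptors, fell by 1.32 ± 0.18.

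Most NF-kB subunits and inhibitors rose. Of 12 subunits and inhibitors, 10 rose and none fell, with a median of 2.20, which was -0.23 on the microglial scale. Nfkbia went from 52.3, 87, 58.1 and 51.1 CPM to 805, 745, 493 and 486 CPM (log2 change 3.34 ± 0.15, FDR = 2.41e-07). Nfkbiz, an inducible nuclear co-regulator of NF-kB, went from 2.88, 4.1, 3.51 and 2.66 CPM to 694, 310.3, 222 and 209 CPM, so that the groups were apart but mouse 1 was above the other suspensions. The change was 6.59 ± 0.30 with all mice and 6.14 without mouse 1. Nfkbib stood at 25.5 to 34.1 CPM in tissue and 24.7 to 35.5 CPM in suspension, overlapping ranges with a change of 0.07 ± 0.14.

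Nearly all cytokine mRNAs tested rose in the suspensions. Of 12 cytokines tested, of 14 listed, 11 rose and none fell (median 3.54, or 1.13 on the microglial scale). Tnf (mm10 chr17:35199391-35201996, minus strand), the early inflammatory cytokine, stood at 0.141, 0.36, 0.223 and 0.253 CPM in Tissue-TRAP, which is 2 to 5 counts per library, and at 238, 79.4, 84.2 and 74.2 CPM in Cell-TRAP. No library of one group came near the other, and mouse 1 was far above the other 3 suspensions. The change was 8.8 ± 0.26 (FDR = 4.41e-08) and 8.12 without mouse 1. Il1b, named after its values were seen, went from 0.422, 0.36, 0.334 and 0.633 CPM to 80.1, 29, 19.3 and 31.4 CPM (6.37 ± 0.26, or 5.85 without mouse 1) and Il1a from 3.24, 3.24, 5.9 and 5.76 CPM to 284, 152, 151 and 155 CPM. The member with the highest mean was Il16, which attracts CD4+ cells and is not an early gene; it rose by 2.08 ± 0.086, which was -0.35 on the microglial scale. Il18 did not pass the fold threshold, with 12.9 to 14.4 CPM in tissue and 18.6 to 20.2 CPM in suspension (log2 change 0.53 ± 0.11).

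Most chemokines rose as well. Of 15, 12 rose and 2 fell (median 2.97, or 0.54 on the microglial scale). Ccl3, which draws in myeloid cells and T cells, went from 1.9, 3.31, 4.34 and 1.9 CPM to 359.5, 308, 276 and 269 CPM (log2 change 6.72 ± 0.24), and Ccl4, its close relative, rose by 6.33 ± 0.27. Ccl2, which draws in monocytes, went from 0.985, 0.864, 0.836 and 0.127 CPM to 190.5, 64.9, 69.4 and 59.7 CPM, with mouse 1 again the highest (7.02 ± 0.26, or 6.71 without mouse 1). Cxcl2, a neutrophil attractant, had 0 counts in every Tissue-TRAP library and 28, 8.71, 6.56 and 7.05 CPM in Cell-TRAP, at least 64.1-fold higher when tissue is set at 3 counts per library. The members that fell were Cx3cl1, the fractalkine ligand of Cx3cr1 that neurons make, and Cxcl14. Cx3cl1 stood at 599.8, 567, 574 and 734 CPM in tissue and 45.9, 26.9, 30.1 and 24 CPM in suspension and fell by 4.32 ± 0.19 (FDR = 1.98e-07). Its mean in FACSAria-TRAP, from cells that were also digested, was 0.731 CPM, against 278 CPM for Ccl3.

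**Figure D3:**
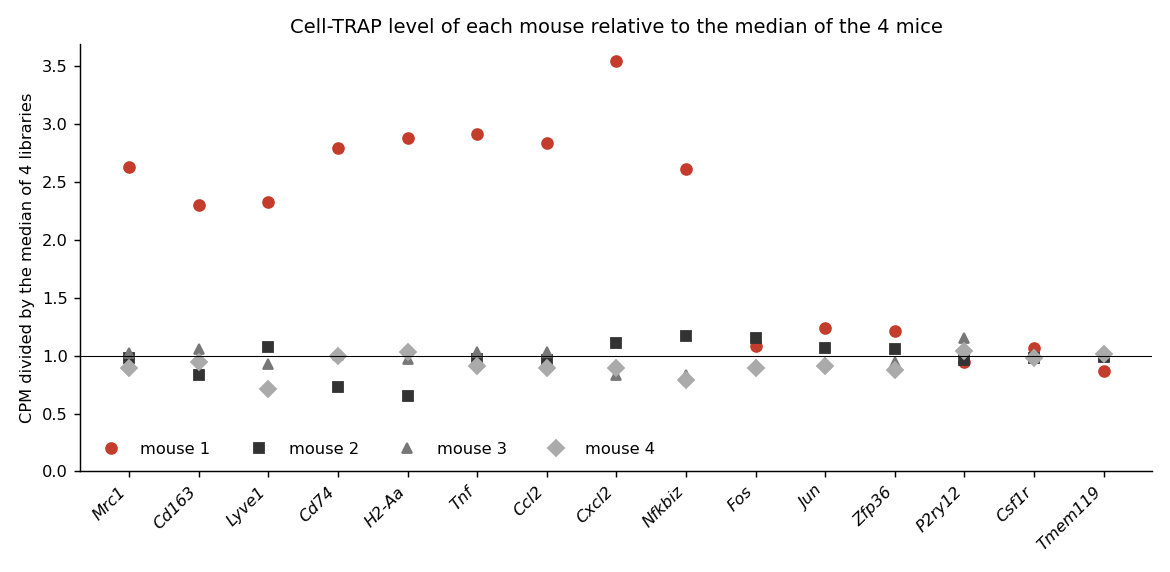
Cell-TRAP level of 15 genes in each mouse divided by the median of the 4 mice. Mouse 1 lies between 2 and 4 times the median for border macrophage, MHC class II, and several cytokine genes and near 1 for Fos, Jun, Zfp36, P2ry12, Csf1r, and Tmem119.

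Border macrophage genes were also high in the Cell-TRAP library of mouse 1. All 8 border macrophage genes rose (median 2.47, or 0.04 on the microglial scale), and they took 0.0441% to 0.0561% of the counts in Tissue-TRAP and 0.232% to 0.452% in Cell-TRAP. Mrc1, the mannose receptor of these macrophages, stood at 55.4, 46.4, 58 and 61.6 CPM in tissue and 1127, 419, 439 and 382 CPM in suspension. It rose by 3.26 ± 0.26, or by 2.89 without mouse 1. Stab1, the member with the highest mean, rose by 2.9 ± 0.14, and Pf4 by 1.21 ± 0.21, where without mouse 1 Pf4 changed by 0.91. All 11 antigen presentation genes rose too (median 1.78, -0.65 on the microglial scale). B2m, the light chain of MHC class I, went from 503, 494, 532 and 483 CPM to 1730, 1666, 1677 and 1826 CPM. The class II chain H2-Eb1 went from 63.1, 38.9, 42.4 and 38 CPM to 307, 73.6, 112 and 123 CPM (1.58 ± 0.19, or 1.32 without mouse 1), and Cd74, the class II chaperone, named after its values were seen, from 180, 161, 120.4 and 104 CPM to 998, 259.8, 359 and 356 CPM. Without mouse 1 the border macrophage median was 2.02, below that with all mice, and the cytokine median 3.85, above its 3.54 with all mice. The same library was also high in neuronal and neuropeptide genes. Their median log2 ratios to the median of the other suspensions were 1.16 and 1.29, against 1.18 for border macrophage genes. Whether the border macrophage RNA and the cytokine levels of that library are linked was not tested.

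Stress programs beside the immediate-early response were mixed. Of 13 heat shock genes, 5 rose and 2 fell, with a median of -0.02, where 24.6% of all genes tested rose and 30.4% fell. Hspa1b, the inducible Hsp70, stood at 52.1, 18.9, 20.9 and 13.9 CPM in tissue and 204, 79.4, 42.3 and 47.6 CPM in suspension, ranges that overlap since the tissue of mouse 1 was also high, and rose by 1.71 ± 0.17 within mice (FDR = 2.30e-05), a change of -0.72 on the microglial scale. The constitutive Hspa8 stood at 2348 to 2976 CPM and 2118 to 3322 CPM with a change of -0.02 ± 0.065. Hsp90aa1 fell by 1.67 ± 0.11. The other fall, that of Hsph1, lost its call without mouse 2 (-0.99), without mouse 4 (-0.87), and without the mouse block (-0.88). It was also lost with all 24 TRAP libraries in 1 fit (-0.87). By contrast, all 12 endoplasmic reticulum chaperone and unfolded protein response genes tested passed the test, with changes of 1.01 to 2.02 (median 1.44, -0.99 on the microglial scale). These lie near the 2-fold threshold: Manf, the lowest, was at 0.93 without mouse 1, 0.97 without mouse 3, and 0.96 without mouse 4, the median was 1.03 on the deposited normalization, and 9 of 12 rose in the suspensions of other mice described last. Hspa5, the main chaperone of that compartment, went from 646, 471, 593 and 522 CPM to 2186, 1197, 1459 and 1313 CPM (log2 change 1.43 ± 0.089), and Dnajb9, its co-chaperone, rose by 2.02 ± 0.091. No member of that list rose on the microglial scale.

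The counts of the next lists stand beside 24.6% of all genes tested that rose and 30.4% that fell. On the microglial scale these shares were 0.984% and 83%, so many falls there are shared by most genes. The integrated stress response, which follows phosphorylation of eIF2alpha, had 3 of 11 genes up and 4 down (1 and 9 on the microglial scale). Ppp1r15a, which reverses that phosphorylation, rose by 3.7 ± 0.19, from 11 to 15.6 CPM to 119.8 to 312 CPM. The leucine zipper factors Cebpb and Cebpg rose by 2.73 ± 0.14 and 1.29 ± 0.13, which was 0.30 and -1.14 on the microglial scale. Asns, which makes asparagine and is a target of Atf4, stood at 72, 63.4, 67 and 63.9 CPM and then at 3.54, 3.13, 1.69 and 2.98 CPM and fell by 4.58 ± 0.17 (FDR = 8.97e-08). Of 12 Nrf2 targets 3 rose and 2 fell (median 0.01), and on the microglial scale none rose and 11 fell. Hmox1, which degrades heme, rose by 2.02 ± 0.16 (-0.41 on the microglial scale), while the sulfiredoxin Srxn1 fell by 3.38 ± 0.16 and the quinone reductase Nqo1 by 1.04 ± 0.32, a call lost without mouse 3 (-0.92). Among p53 and Gadd45 genes 2 of 11 rose and 3 fell, and on the microglial scale none rose and 9 fell. Cdkn1a, the p53 target with the highest mean, was at 55.6 to 76.2 CPM and 77.1 to 104 CPM (log2 change 0.403 ± 0.076) and did not pass the fold threshold, Plk3 rose by 2.38 ± 0.13, and Phlda3 fell by 2.81 ± 0.13. Of 11 hypoxia genes 5 rose and 1 fell, and on the microglial scale none rose and 8 fell. The glucose transporter Slc2a1, which endothelial cells also hold, rose by 2.68 ± 0.088 (0.25 on the microglial scale) and the prolyl hydroxylase Egln3 fell by 1.51 ± 0.25. Of 9 glucocorticoid and clock genes 5 rose and 2 fell (1 and 5 on the microglial scale). Sgk1, a kinase induced by glucocorticoids and cell shrinkage, went from 63.5, 70.6, 84.7 and 83.8 CPM to 832, 1142, 1066 and 1038 CPM (3.75 ± 0.091), while the clock genes Nr1d1 and Dbp fell by 1.51 ± 0.11 and 1.15 ± 0.13.

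**Figure D4:**
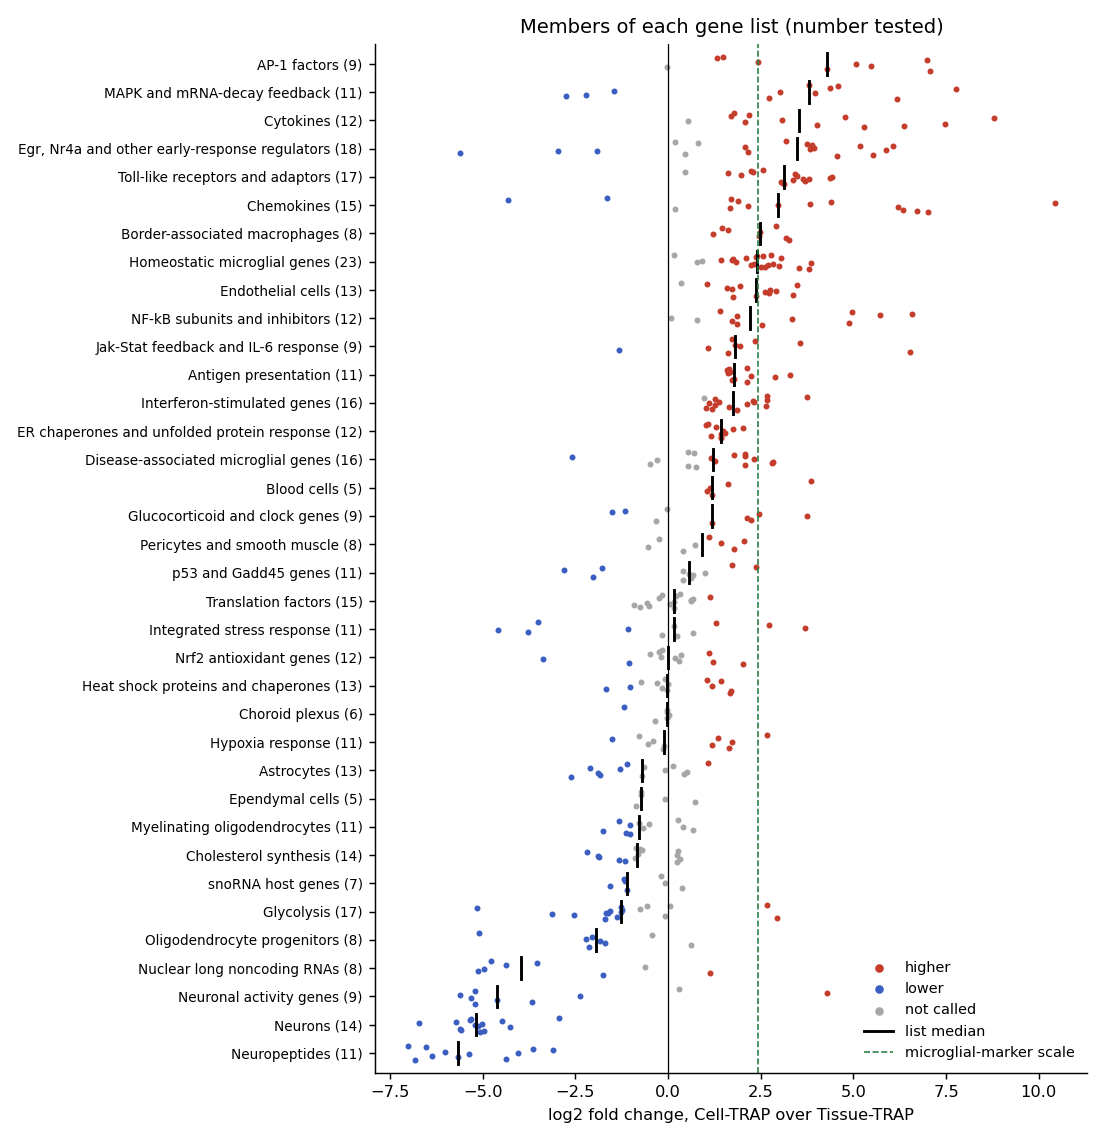
Log2 fold change of Cell-TRAP over Tissue-TRAP for each member of 36 gene lists, in red where the gene rose, blue where it fell, and grey otherwise, with a black bar at each list's median and the number tested in parentheses; the dashed line is the level of the microglial scale, 2.43. AP-1 factors have the highest median, 4.29, and neuropeptides the lowest, -5.65.

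Microglial markers rose almost without exception. Of 281 microglial markers 272 rose and none fell, and none had a change at or below 0. That list is not one of identity genes only, as it also holds the cytokine Tnf and the border macrophage gene Pf4. Of 23 homeostatic microglial genes tested, 20 rose, with a median of 2.41 (-0.02 on the microglial scale). P2ry12 (mm10 chr3:59216271-59262831, minus strand), the purinergic receptor that guides microglial processes, stood at 190.4, 209, 209.5 and 202 CPM in tissue and 2628, 2666, 3190 and 2876 CPM in suspension. It rose by 3.81 ± 0.07 (FDR = 3.54e-08) and by 1.38 on the microglial scale; it was named after its values were seen, as were Tmem119, Cx3cr1, Tyrobp, Aif1, and Gngt2. The receptor for CSF1, Csf1r, on which microglia depend to survive, went from 1766, 1540.3, 1883 and 1692 CPM to 11772, 10862, 11251 and 10889 CPM (log2 change 2.71 ± 0.057), and the lysophosphatidylserine receptor Gpr34 rose most of the list, by 3.86 ± 0.10. Cx3cr1 rose by 2.98 ± 0.073 and Tmem119 by 2.6 ± 0.062. The 3 homeostatic genes that did not rise were Mef2c, a transcription factor that neurons and endothelial cells share (319.8 to 509 CPM against 398 to 462 CPM, log2 change 0.17 ± 0.11), Tyrobp (0.78 ± 0.091), and Aif1 (0.91 ± 0.073).

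Among microglial markers, median changes differed by transcript length. The G protein subunit Gngt2 had the smallest change, 0.27 ± 0.11, at 37.6, 50.5, 47.6 and 41.6 CPM in tissue and 43.2, 58.3, 48.2 and 65.2 CPM in suspension, ranges that overlap. When the 279 markers with a GENCODE transcript were split by the length of the longest transcript into 3 sets of 93, the median change was 2.22 in the shortest set (median 1717 bases), 2.55 in the middle, and 2.80 in the longest (4959 bases). Between Cell-Input and Tissue-Input the same sets had medians of 3.67, 3.84, and 3.69. Over all 13848 tested genes with a length, 3 such sets of 4616 had TRAP medians of -0.29, 0.02, and 0.17. This split was made after the values were seen and carries no test.

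The medians of other microglial gene groups were positive, and those of the interferon-stimulated and disease-associated genes were negative on the microglial scale. Of 17 Toll-like receptors and adaptors 16 rose (median 3.12, or 0.70 on the microglial scale). Tlr9, the receptor for unmethylated DNA, went from 6.89, 9.79, 9.8 and 11.1 CPM to 213, 176, 209 and 204 CPM (4.42 ± 0.14), and Tlr7, for single-stranded RNA, rose by 3.79 ± 0.11, whereas the kinase Irak1, made by most cells, changed by 0.46 ± 0.10. Of 16 interferon-stimulated genes 15 rose (median 1.75, -0.68 on the microglial scale). Mx1, an antiviral GTPase, rose by 3.75 ± 0.49 at only 2.92 to 6.71 CPM in suspension. Of 16 disease-associated microglial genes 9 rose and 1 fell (median 1.21, -1.22 on the microglial scale). The beta-glucan receptor Clec7a rose by 2.84 ± 0.22, from 3.94, 4.1, 6.18 and 2.79 CPM to 41.1, 20.03, 33.2 and 28.3 CPM, and the protease Ctsd by 1.78 ± 0.071. Fabp5, a fatty acid carrier that other brain cells also make, fell by 2.58 ± 0.11, and its mean in FACSAria-TRAP was 2.33 CPM.

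Neuronal transcripts fell without exception in both short lists. All 14 neuronal genes fell (median -5.17), all 11 neuropeptides fell (median -5.65), and 94 of 97 neuronal markers fell. Snap25 (mm10 chr2:136713450-136782428, plus strand), a synaptic SNARE protein, stood at 2056, 1863, 1833 and 1886 CPM in tissue and 118, 52.6, 35.1 and 47.9 CPM in suspension. Neuronal genes were lower in every suspension than in any tissue library, and among the suspensions mouse 1 held the most Snap25. It fell by 5.07 ± 0.25 (FDR = 3.79e-07), and the change was -5.4 without mouse 1. The glutamate receptor subunit Gria1 fell least of the neuronal genes, by 2.94 ± 0.11. The hormone somatostatin, Sst, went from 231, 229, 167 and 154 CPM to 4.11, 1.92, 1.04 and 0.407 CPM, and Hcrt, the orexin precursor, from 7.74, 5.33, 5.46 and 5.64 CPM to 2 counts in a single suspension.

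Genes of other glia were mixed. Of 13 astrocyte genes 6 fell and 1 rose (median -0.70). Gfap, the astrocyte intermediate filament, went from 137, 139, 173 and 148 CPM to 25.1, 29.6, 17.4 and 27.4 CPM and fell by 2.6 ± 0.17. The riser was Glul, glutamine synthetase, by 1.07 ± 0.078 (-1.36 on the microglial scale, and 0.98 with the call lost without mouse 2), from 1899, 1798, 1918 and 1776 CPM to 4076, 4517, 3513 and 3504 CPM, and its mean in FACSAria-TRAP was 2954 CPM. Of 11 myelin genes 5 fell and none rose (median -0.79), with Mbp at 308, 465, 332 and 313 CPM in tissue and 101 to 259.5 CPM in suspension (-1.03 ± 0.19, with the call lost at -0.86 without mouse 1, -0.95 without mouse 3, and -0.94 without the mouse block) and Mog falling by 1.74 ± 0.19. Mag, an adhesion protein of myelin, stood at 31.4 to 45.4 CPM and 50.0 to 85.4 CPM with a change of 0.68 ± 0.10 and a mean of 42.9 CPM in FACSAria-TRAP. Of 8 progenitor genes 6 fell, among them the fate factor Olig1 by 1.7 ± 0.082.

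Most endothelial genes rose. Of 13, 12 rose and none fell (median 2.37, -0.06 on the microglial scale), and of 233 endothelial markers 178 rose and 6 fell (median 1.78, -0.65 on the microglial scale, where 7 were higher and 88 lower). The VEGF receptor Flt1 stood at 28.3, 24.9, 22.5 and 17.7 CPM in tissue and 280.1, 242, 225 and 213 CPM in suspension, and rose by 3.37 ± 0.09. The efflux pump Abcb1a rose by 3.49 ± 0.089 and the tight junction protein Cldn5, named after its values were seen, by 1.75 ± 0.15 (-0.68 on that scale). In FACSAria-TRAP, Flt1 had a mean of 9.81 CPM and Abcb1a of 5.45 CPM. Of 8 mural genes tested 4 rose, with smooth muscle myosin Myh11 up by 2.05 ± 0.24 and Vtn at 46.8 to 67.9 CPM and 40.4 to 60.4 CPM. None of 5 ependymal genes and 1 of 6 choroid plexus genes passed the test. Ttr, the transthyretin that choroid plexus secretes, stood at 164, 190, 202 and 131 CPM in tissue and 219.8, 42.8, 165 and 176 CPM in suspension, where mouse 2 was low (-0.34 ± 0.39). All 5 blood genes tested, of 12 listed, passed the test, but 3 of these calls rest on single mice. The hemoglobin gene Hba-a1 had overlapping values, 18.5, 37.8, 16.7 and 19.8 CPM and 32.6, 28.6, 65.2 and 94.5 CPM, and was lower in the suspension of mouse 2. Its change of 1.19 was 0.87 without mouse 3 and 0.77 without mouse 4, that of Hba-a2 (1.04) was 0.92 and 0.67, and that of Alas2 (1.13) was 0.59 and 0.94, with the call also lost without mouse 1 (1.18). The monocyte chemokine receptor Ccr2 rose by 3.85 ± 0.26 to 4.35 to 9.05 CPM. The part of the lower neuronal share in these rises was not tested.

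Most glycolytic and oxidative phosphorylation genes fell, where 30.4% of all genes tested did. Of 17 glycolytic genes 11 fell and 2 rose (median -1.27). Eno2, the neuronal enolase, fell by 5.14 ± 0.23, and Pkm, pyruvate kinase, by 1.27 ± 0.065, from 2068, 1662, 1884 and 1771 CPM to 798, 714, 736 and 799 CPM. Hk2, an inducible hexokinase, rose by 2.94 ± 0.083, from 66.7, 62.6, 76.7 and 68 CPM to 570.3, 467, 524 and 537 CPM, and the lactate exporter Slc16a3 by 2.66 ± 0.11. On the microglial scale Hk2 changed by 0.51 and Slc16a3 by 0.24, and neither was called. Of 76 nuclear-encoded oxidative phosphorylation genes 63 fell and none rose (median -1.45); Ndufs5, of complex I, fell most, by 2.19 ± 0.12. Of 80 cytosolic ribosomal protein genes 8 fell (10%) and none rose (median -0.59), and these genes took 1.73% to 1.94% of the counts in Tissue-TRAP and 1.05% to 1.13% in Cell-TRAP. Rps15a fell by 1.68 ± 0.086 and Rpl10a, the protein that carries the eGFP tag, changed by 0.14 ± 0.068 (-2.29 on the microglial scale). Among 14 cholesterol genes 5 fell and none rose (median -0.84). Of 15 translation factors 1 rose, Eif4ebp1, an inhibitor of cap-dependent initiation (1.12 ± 0.14, or 0.98 with the call lost without mouse 4).

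Nuclear long noncoding RNAs were lower in the suspensions, and 1 tissue library was high in them. Of 8, 6 fell and 1 rose (median -3.96). Meg3 stood at 586, 1781, 830.4 and 1038 CPM in tissue and 19, 58.1, 20.3 and 27.9 CPM in suspension and fell by 5.11 ± 0.10 (FDR = 3.75e-08). Malat1, named after its values were seen, stood at 150.2, 669, 217 and 268 CPM and 34.2, 153, 73.8 and 112 CPM, with overlap, and mouse 2 was the highest in both preparations. Neat1, the scaffold of paraspeckles, went the other way, from 22.1, 40.9, 28.9 and 33.4 CPM to 46, 117, 53.5 and 70.8 CPM, and rose by 1.14 ± 0.11, a change of -1.29 on the microglial scale. Its call was lost with at least 10 counts in every library (0.996) and with limma on the deposited log2 values (0.73). Of 7 snoRNA host genes 4 fell, with Gas5 lower by 1.11 log2 units.

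The change in TRAP was tested against the change in Input, the RNA before pull-down, in 1 fit of 16 libraries. The difference is signed, so a gene level in TRAP that fell in Input also has a positive value. Input holds the RNA of all cells, so a change in cell make-up and one in binding to ribosomes cannot be told apart. Of 15595 genes, 818 changed more upward in TRAP (5.25%) and 5072 more downward (32.5%). Without mouse 1 the first count was 1255, and with at least 10 counts in every library the second was 2924. Many early-response genes were of the first kind. Of the 9 AP-1 genes 6 had a positive and 2 a negative interaction, and of the 18 Egr and Nr4a genes 10 and 2. Fos rose by 7.07 in TRAP and by 4.45 between the Inputs, a difference of 2.55 ± 0.20 (FDR = 5.38e-08). For Egr1 the changes were 4.55 and 1.75, a difference of 2.73 ± 0.15, and for Dusp1 6.17 and 3.45, a difference of 2.65 ± 0.16. Nfkbiz (2.81 ± 0.32) and Egr2 (2.77 ± 0.26) were also among the 10 largest. Of 12 cytokines 1 had a positive and 4 a negative interaction, and of 15 chemokines 1 and 8, while Tnf, at 8.8 and 6.9, did not pass (1.83 ± 1.06, FDR = 0.143).

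Rgs14, Ptk2b, Rtn4rl1, Vipr1, and Rreb1 made up the rest of the 10 largest positive interactions. Rgs14, a regulator of G protein signalling known from the hippocampus, stood at 21.5, 17.4, 20.9 and 20.9 CPM in Tissue-TRAP and 20.1, 20.7, 17.1 and 15.5 CPM in Cell-TRAP, overlapping groups, while it changed by -3.18 between the Inputs. The kinase Ptk2b likewise changed by -0.01 ± 0.091 in TRAP and by -2.56 in Input. Their means in FACSAria-TRAP were 17.3 CPM and 312 CPM. Rreb1, a zinc-finger factor, rose by 3.29 ± 0.20 in TRAP and changed by 0.83 in Input.

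Nearly all homeostatic microglial genes were of the second kind. Of 23, 21 had a negative interaction and 1, Mef2c, a positive one. Between the Inputs the list had a median change of 4.01, against 2.41 between the TRAP fractions. P2ry12 rose by 5.39 in Input, a difference of -1.62 ± 0.19 (FDR = 3.43e-06), and Tyrobp by 3.36, a difference of -2.64 ± 0.15. Between the Inputs 26.1% of 15459 genes rose and 20.6% fell. All 11 myelin genes rose between the Inputs (median 2.00, against -0.79 in TRAP) and all 11 had a negative interaction. Of 13 astrocyte genes 9 rose between the Inputs (median 1.43, against -0.70) and 12 had a negative interaction. The largest negative interactions were those of Spock1, Map6d1, Gng13, Edil3, Myh7, Alas2, Clvs1, Stmn4, Spock3, and Nkain2. Spock1, a testican of the extracellular matrix, changed by -1.03 in Input and fell by 5.98 ± 0.43 in TRAP, from 483, 455, 539 and 674 CPM to 20.1, 8.27, 6.23 and 3.73 CPM. Alas2, the heme synthesis enzyme of red cells, rose by 5.71 in Input and changed by 1.13 ± 0.55 in TRAP.

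**Figure D5:**
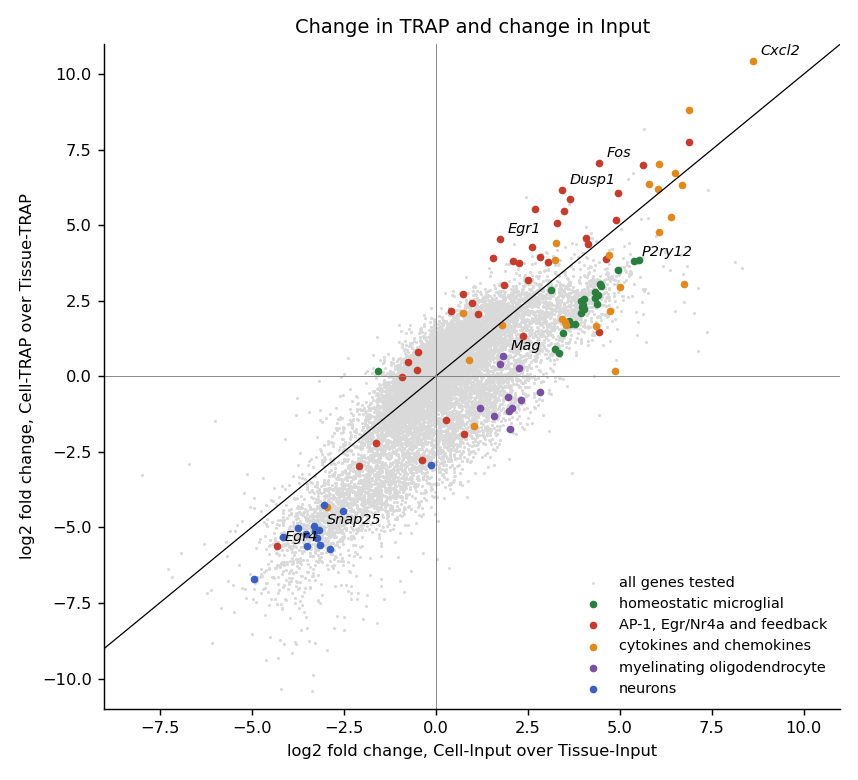
Log2 fold change of Cell-TRAP over Tissue-TRAP (y axis) against that of Cell-Input over Tissue-Input (x axis) for each gene tested, with the line of equal change. Many early-response and feedback genes, such as Egr1 (4.55 in TRAP, 1.75 in Input) lie above the line, most homeostatic microglial genes, such as P2ry12 (3.81 and 5.39) and myelin genes below it.

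Suspensions of other mice, prepared without inhibitors in the cell preparation comparison, were set beside these values. They were tested against a second set of Tissue-TRAP libraries labelled with the numbers of mice 1 to 4, so the tissue sides are labelled as the same mice. Whether those libraries came from the same RNA or pull-down is not given in the sources used here. Of 14584 genes, 24.4% rose and 30% fell. Fos changed by 7.39 there and 7.07 here, Zfp36 by 8.1 and 7.77, and Tnf by 8.84 and 8.8. The AP-1 genes had a median of 5.24 with 7 of 9 higher, the cytokines 3.47 with 11 higher, and the homeostatic microglial genes 2.36 with 20 higher. Border macrophage genes, high in mouse 1 here, had a median of 1.98 with 6 of 8 higher. Nr4a1, named after its values were seen, rose by 2.15 ± 0.20 here (-0.28 on the microglial scale), from 55.8, 49.2, 36.4 and 49 CPM to 369, 285, 127 and 140.1 CPM, and changed by 3.21 there. U05342 rose by 5.94 ± 0.23 here, to 25.4 to 28.9 CPM, and changed by 1.92 there. In FACSAria-TRAP, Fos ranged over 3806 to 5974 CPM, Jun over 3753 to 5859 CPM, Tnf over 63.8 to 170 CPM, and P2ry12 over 3017 to 3666 CPM in 4 libraries from mice other than these, beside 3245 to 4196, 3827 to 5192, 74.2 to 238, and 2628 to 3190 CPM in Cell-TRAP.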

How the data were processed

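RNA-Seq libraries of the Tissue and Cell groups, Input and TRAP, were taken from the deposited table of the sort comparison, with FACSAria-TRAP for levels, and a second table gave the other mice. The authors trimmed reads, aligned them to mm10 in Strand NGS with strand taken into account, removed duplicates, and quantified genes. The deposited expected counts are mostly not whole and were rounded. The deposited log2 values were normalized by the authors with DESeq2. Genes reach the tables when every sample of some group exceeds 5 reads, and 23 symbols turned into dates were restored.

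Counts were scaled with TMM and fitted with edgeR 4.0.16 (quasi-likelihood, mouse as a block) in R 4.3.3, and p-values were adjusted with Benjamini-Hochberg over all genes tested. Alternatives used DESeq2 1.42.0, limma 3.58.1, other filters and scalings, 24 TRAP libraries, and leaving out each mouse. The mouse pairs both preparations of a brain. Deviations from the group means correlated at 0.03 to 0.14 within mice (4 pairs) and at -0.10 to 0.08 between mice (12 pairs). The fits were tested on simulated data in which 200 genes changed, in either direction, and all others stayed level. Far more genes changed here, so that test cannot show whether the scaling holds for these data. Members and gene lists were chosen with earlier results of these data known. Genes were named by rule: the 15 largest rises and falls with at least 20 CPM in every library of the higher group, each list's highest, most raised, most lowered and contrary members, and the 10 largest interactions in each direction. Libraries held 12214821 to 17220508 counts, so genes with few counts carry little precision. Replicates are mice, and n is 4. Promoter sequences are from RefSeq (GRCm38.p6), and transcript lengths from GENCODE. Some genes that the rule names are not reported here.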

Additional observations from a re-analysis of the deposited data

Results flagged for a closer look

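Of 338 groups of 4 libraries, over 169 of the genes named by rule or in the text, 33 held a library whose gap to its nearest neighbour, as a share of the group's range, passed Dixon's 95% critical value, where chance passes about 1 group in 20. The Cell-TRAP library of mouse 1 accounted for 16 of them and the Tissue-TRAP library of mouse 2 for 8.

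The values in parentheses are these shares of the range. Cell-TRAP of mouse 1 was the highest of its group for Tnf (0.939), Ccl2 (0.926), Calb1 (0.838), 6330403A02Rik (0.902), Dusp4 (0.858), Cxcl2 (0.900), Hsp90aa1 (0.930), Sqstm1 (0.914), Mrc1 (0.924), Eef1a1 (0.873), Rpl4 (0.896), Cd163 (0.851), Cd74 (0.866), H2-Aa (0.831), and Il1a (0.970). Tissue-TRAP of mouse 3 was the highest of its group for Ccl4 (0.859) and Tmem119 (0.898). Tissue-TRAP of mouse 4 was the highest of its group for Hipk4 (0.902). Tissue-TRAP of mouse 2 was the highest of its group for Nefh (0.843), Trp53inp1 (0.906), Hba-a1 (0.855), Mbp (0.849), and Snhg3 (0.838). Tissue-TRAP of mouse 1 was the highest of its group for Hsph1 (0.893) and Hcrt (0.871). Cell-TRAP of mouse 1 was the lowest of its group for Cebpg (0.906). Cell-TRAP of mouse 2 was the highest of its group for Hcrt (1.0), Egfl7 (0.906), Myh11 (0.845), and Gas5 (0.833). Tissue-TRAP of mouse 2 was the lowest of its group for Rps15a (0.866), Rgs14 (0.851), and Rtn4rl1 (0.836). The genes of mouse 1 include cytokine, border macrophage, and MHC class II genes, and the cause was not tested.

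The change in TRAP differed from the change in Input in edgeR's test of the interaction, and the largest differences on the log2 scale were positive for Rgs14 (2.97), Nfkbiz (2.81), Egr2 (2.77), Egr1 (2.73), Dusp1 (2.65), Fos (2.55), Ptk2b (2.49), Rreb1 (2.38), Rtn4rl1 (2.34), and Vipr1 (2.33) and negative for Spock1 (-4.97), Map6d1 (-4.95), Gng13 (-4.89), Edil3 (-4.57), Myh7 (-4.54), Alas2 (-4.53), Clvs1 (-4.51), Stmn4 (-4.41), Spock3 (-4.39), and Nkain2 (-4.34).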

How the results depend on the processing

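The counts of 3622 higher and 4483 lower genes stayed within 1.5 times under every alternative but the microglial scale, on which they were 145 and 12224. Without the replicate block they were 3618 and 4471, with DESeq2's Wald test 3482 and 4576, and leaving out 1 mouse at a time gave 3492 to 3680 and 4451 to 4581. The block changed no other count by over 1.5 times. Of the interaction counts, 5072 lower became 2924 with at least 10 counts in every library, and 818 higher ranged from 778 to 1255 when 1 mouse was left out, with 1255 without mouse 1. The log2 change of single genes took the opposite sign as follows, and the cause was not tested beyond the shift of 2.43 that the microglial scale sets. Without mouse 4 these were Fosl2 (0.097), Nfkbib (-0.020), Folr1 (-0.55), and Ptk2b (0.044). With all 24 TRAP libraries in 1 fit without the block these were Fosl2 (0.010), Hspa8 (0.018), and Ptk2b (0.0071). On the microglial scale these were Nfkbib (-2.36), Il16 (-0.35), Il18 (-1.90), Hspa1b (-0.72), Hspa5 (-0.997), Dnajb9 (-0.41), Manf (-1.42), Cebpg (-1.14), Hmox1 (-0.41), Cdkn1a (-2.03), Plk3 (-0.054), Trp53inp1 (-0.71), Mef2c (-2.26), Ctsd (-0.66), Irak1 (-1.97), B2m (-0.65), H2-Eb1 (-0.85), Ifitm3 (-1.47), Pf4 (-1.22), Hba-a1 (-1.24), Hba-a2 (-1.38), Glul (-1.36), Mag (-1.75), Cspg4 (-1.81), Egfl7 (-2.07), Myh11 (-0.37), Ccdc153 (-1.68), Folr1 (-2.38), Eef1a1 (-2.27), Eif4ebp1 (-1.30), Neat1 (-1.29), Snhg1 (-2.04), Rpl10a (-2.29), Rtn4rl1 (-0.73), Vipr1 (-1.72), Alas2 (-1.28), Tyrobp (-1.66), Aif1 (-1.52), Gngt2 (-2.16), Cd74 (-0.80), H2-Aa (-0.81), Nr4a1 (-0.28), and Cldn5 (-0.68). With at least 10 counts in every library these were Nfkbib (-0.073) and Rpl10a (-0.0049). Without mouse 3 these were Nfkbib (-0.037) and Folr1 (-0.40). With limma on the deposited log2 values these were Nfkbib (-0.35), Cdkn1a (-0.0092), Mef2c (-0.25), Egfl7 (-0.058), Folr1 (-0.82), Eef1a1 (-0.25), Snhg1 (-0.069), Rpl10a (-0.27), and Gngt2 (-0.14). Without mouse 2 these were Ttr (0.18). With DESeq2 size factors these were Folr1 (-0.016). With no filter these were Folr1 (-0.023). With DESeq2's Wald test these were Folr1 (-0.18). When 1 mouse was left out, Fosl2 ranged from -0.14 to 0.097, Nfkbib ranged from -0.037 to 0.24, Ttr ranged from -0.67 to 0.18, Folr1 ranged from -0.55 to 0.72, and Ptk2b ranged from -0.12 to 0.044. Calls lost on the microglial scale without a change of sign were those of Nfkbia (0.91), Cebpb (0.30), Slc2a1 (0.25), Csf1r (0.27), Clec7a (0.42), Nlrc5 (0.87), Stab1 (0.47), and Mrc1 (0.83). Others were those of Flt1 (0.94), Hk2 (0.51), Slc16a3 (0.24), Rreb1 (0.86), Tmem119 (0.17), Cx3cr1 (0.55), Cd163 (0.75), and Lyve1 (0.018). Genes with few counts, such as Tnf and Cxcl2 in Tissue-TRAP, are limited by depth.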
